A study of Caenorhabditis elegans with 58 samples.

Results

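mir-71 is a microRNA (miRNA) gene of the nematode Caenorhabditis elegans, and both of its mature arms were counted: mir-71_5p, the guide, and mir-71_3p*, the arm that the deposited names mark with an asterisk as the passenger. These 2 arms are the lines of the count table that carry the gene's name, out of 276 miRNA arms. They were chosen by their measured values: levels over the stages and strains, with the guide low in embryos and high in larvae, the spread between replicates, the ratio of the arms and the share of L1 counts. Every stage difference, spread, ratio and share below is therefore a description, with no test, and stage differences carry their standard error (SE). In the WBcel235 annotation supplied with the reference, mir-71 is on chromosome I. It lies within an intron of the protein-coding gene ppfr-1, on the same strand, and touches no exon of it. The non-coding RNA gene F16A11.6 overlaps it on the opposite strand. The sources used here do not say whether counting used strand, so reads of that antisense gene cannot be told apart from reads of mir-71.

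An animal miRNA is cut from a hairpin into a duplex of both arms. The guide arm is loaded into an Argonaute protein and pairs with messenger RNAs through its seed, while the passenger arm is mostly discarded. In C. elegans, mir-71 is known for promoting a long adult life, largely from the nervous system, and for survival and recovery of larvae that hatch without food and arrest in the first larval stage (L1). It also acts in the left-right asymmetry of the AWC olfactory neurons, where it represses the adaptor gene tir-1.

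Small RNA was sequenced from whole hermaphrodites in 58 libraries that form 2 parts. The allele part held 42 libraries of embryos and L1 larvae. Wild type (strain N2) had 6 libraries per stage, and each of 5 strains with an edited mir-35 gene had 3. The edited strains were MCJ11, mir-35(cdb2 cdb4), called seed_rev; MCJ13, mir-35(cdb2 cdb6), called seed_mut; MCJ180, mir-35(cdb2 cdb72), called mut_3'; MCJ191, mir-35(cdb2 cdb 78), called mir-82_3'; and MCJ211, mir-35(cdb2 cdb 95), called seed_rev_no_bulge. All 5 carry cdb2, which the wild-type controls do not, so its part cannot be told apart from that of the other edits. mir-35 belongs to a family that is essential for embryonic development and is most abundant in embryos. The staged part held 16 libraries, 2 for each of 4 stages in N2 and in CZ9907, ebax-1(tm2321), an ebax-1(null) strain. The EBAX-1 protein chooses substrates for a ubiquitin ligase, and its relatives take part in the destruction of miRNAs that pair extensively with certain targets. The 4 stages are the 2-8 cell embryo, the comma and pretzel embryos, named for the shape of the folding body, and the starved L1. Each genotype is 1 strain, the worms were grown in liquid culture and bleached to free embryos, and L1 larvae were obtained by leaving embryos overnight without food. The sources used here do not say how staged embryos were collected. Nothing says that replicates came from separate cultures, so p-values measure the spread between these libraries, which may be technical.

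The 42 allele libraries held 3703571 to 20402797 miRNA counts each, and the 16 staged ones 170758 to 4059401. Of these, mir-71_5p had 10376 to 2225371 counts in the former and 13667 to 891700 in the latter. mir-71_3p* was sparser, with 248 to 14565 and 27 to 2488 counts. Its lowest value, 27 of 866291 counts in an ebax-1(null) comma library, is a share of 0.00312% with an exact Clopper-Pearson interval of 0.00205 to 0.00453%, for counting error only. Markers that bear on the stage labels were read beside mir-71. The summed mir-35 family made up 177000 to 506300 CPM (counts scaled to a common library size with TMM factors) in allele-part embryos. It was 97620 to 117700 CPM in seed_rev L1, where the edited mir-35 itself was 92140 to 110600, and 5029 to 45150 CPM in the L1 libraries of the other strains. The larval-stage sum of lin-4, mir-84 and mir-237 was 43.01 to 185 CPM in those embryos and 530.9 to 1161 in L1.

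In wild-type embryos of the allele part, mir-71_5p took 0.267, 0.335, 0.126, 1.075, 0.4425 and 0.3645% of all miRNA counts in replicates 1 to 6, a mean of 0.435% ± 0.331 (SD, n = 6). In wild-type L1 larvae the shares were 9.51, 8.29, 7.85, 12.4, 7.295 and 18.4%, a mean of 10.6% ± 4.24 (SD, n = 6). Every L1 library lay above every embryo library. The guide thus went from place 21 to 40 among the arms in wild-type embryos to place 1 to 5 in wild-type L1.

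All 5 edited strains showed the same course. Among the 15 edited embryo libraries the share was 0.0962 to 1.83%, and among the 15 edited L1 libraries it was 6.93 to 25.7%. In L1, seed_rev had a mean share of 8.15% ± 0.525 and seed_mut of 8.67% ± 2.34. The mean was 12.7% ± 4.63 in mut_3', 15.3% ± 6.58 in seed_rev_no_bulge and 16.1% ± 9.11 in mir-82_3' (SD, n = 3 each). In embryos the means ran from 0.284% ± 0.159 in seed_mut to 0.744% ± 0.948 in seed_rev_no_bulge (SD, n = 3 each). Neighbouring strains in this order overlapped in both stages, and the gaps between their means were smaller than the larger of the SDs.

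**Figure D1:**
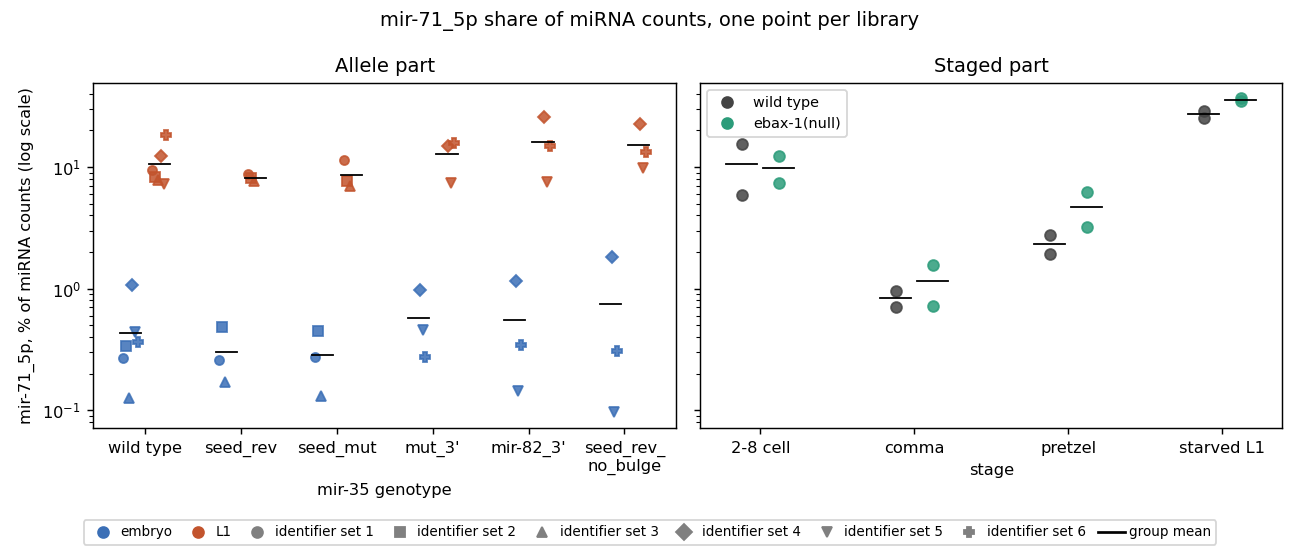
Share of all miRNA counts taken by mir-71_5p (log axis), 1 point per library, with group means as black lines. Left, embryos and L1 of wild type and the 5 edited strains, with symbols for the 6 sets of neighbouring sample identifiers; right, the 4 stages of the staged part in wild type and ebax-1(null). All 21 L1 libraries on the left, at 6.93% or more, lie above all 21 embryo libraries, at 1.83% or less.

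The change from embryo to L1, as a log2 difference of the guide's scaled level, was 4.26 (SE 0.607) in wild type, which is 19.2-fold. In the edited strains it ran from 4.35 (SE 0.862) in mut_3' to 4.82 (SE 0.881) in mir-82_3', or 20.4 to 28.2-fold. In 2 of the strains these values turned on single libraries. Without embryo replicate 1 the rise was 6.34 in seed_rev_no_bulge and 6.26 in mir-82_3', and without embryo replicate 2 it was 3.404 in seed_rev_no_bulge. In wild type 3 of 229 arms rose more than the guide, and in the 5 edited strains 3 to 7 did. The median of all arms was −0.18 in wild type, so the guide stood 4.44 above it. Under 4 other scalings of the libraries that median moved between −0.20 and 0.95, and the guide stayed 4.28 to 4.46 above it. A change of scaling shifts all arms nearly alike, so this distance from the median is no check on the scaling.

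Both arms rose, but not alike. mir-71_3p* was 67.0 to 247.2 CPM in wild-type embryos and 410.5 to 776.9 CPM in wild-type L1, without overlap. Its change was 2.05 (SE 0.311) on the log2 scale, or 4.13-fold, and 24 of 229 arms rose more. By spike-ins it was 2.86, with the median of all arms at 0.95. In the edited strains its change was 1.28 (SE 0.430) in seed_mut to 2.52 (SE 0.448) in seed_rev_no_bulge.

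The staged part asks when the guide is present. Its share of miRNA counts was high in the earliest embryos, low at comma, and highest in starved L1. In wild type it was 15.4 and 5.90% in 2-8 cell embryos, 0.708 and 0.961% at comma, 1.925 and 2.77% at pretzel, and 29.1 and 25.4% in starved L1. The ebax-1(null) libraries gave 12.4 and 7.39%, then 1.58 and 0.718%, 3.24 and 6.21%, and 35.1 and 36.8%. Within each genotype no library of one stage overlapped the next in this share, and how many other arms had no overlap was not counted. Per spike-in count the 2-8 cell and comma libraries did overlap. In wild type the guide was 0.159 and 0.0391 at the 2-8 cell stage against 0.0145 and 0.0435 at comma. In ebax-1(null) it was 0.215 and 0.0708 against 0.0734 and 0.0355. In starved L1 mir-71_5p was the most abundant arm in all 4 libraries, and in 2-8 cell embryos it was at place 2 or 3.

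The comma embryo was the low point on the CPM scale as well. In wild type the guide was 128701 and 65115 CPM at the 2-8 cell stage and 11007 and 13786 CPM at comma. The log2 difference was −2.97 (SE 0.560), so comma was 7.82-fold lower, and −2.39 without the shallow 2-8 cell replicate 1, which held 350698 counts. Pretzel embryos had 24828 and 43457 CPM, 1.46 higher than comma on the log2 scale (SE 0.531). Leaving out pretzel replicate 2, the higher one, gave 0.81. Starved L1 had 176690 and 158135 CPM, 2.29 higher than pretzel (SE 0.545), which became 3.86 without pretzel replicate 2 and 3.49 without the 3 staged libraries under 500000 counts.

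With TMM factors, starved L1 and 2-8 cell embryos of wild type stood closer to each other than to the stages between them. By spike-ins the 2-8 cell level lay closer to comma (−1.77) than to starved L1 (2.52). Pretzel lay 1.88 above comma by spike-ins, so it was close to the 2-8 cell level. With TMM factors the log2 difference of starved L1 from the 2-8 cell stage was 0.79 (SE 0.523), an interval of −0.24 to 1.82. It was 1.36 without 2-8 cell replicate 1 and 0.39 without replicate 2.

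In ebax-1(null) the guide followed the same course on the CPM scale. It was 102073 and 64417 CPM at the 2-8 cell stage, 16820 and 9022 at comma, 42918 and 59212 at pretzel and 214473 and 316028 in starved L1. The steps were −2.69 (SE 0.554), 1.98 (SE 0.539) and 2.38 (SE 0.547) on the log2 scale, with starved L1 above 2-8 cell by 1.67 (SE 0.534). By spike-ins the step to comma was −1.39 and starved L1 lay 3.06 above 2-8 cell, and RLE factors gave 3.28 for the last step.

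The wild-type steps were read relative to the median of all 198 arms under 5 scalings. A change of scaling shifts all arms of a comparison nearly alike, so distances from the median are bound to change little. The step to comma was −3.73 to −4.06, that from comma to pretzel 1.05 to 1.31, and that from pretzel to starved L1 3.72 to 3.98 relative to the median. The median itself moved by more than 1 log2 unit between scalings. By summed spike-ins it was 1.95 higher at comma than at the 2-8 cell stage, against 0.81 with TMM factors. Not set against the median, library totals gave 3.54 for the guide's last step.

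Other markers moved with the 2-8 cell libraries. The neuron markers mir-124 and lsy-6 were at 0 in all 4, and the muscle marker mir-1 was 2470 to 10250 CPM against 22540 to 54140 CPM in the later staged libraries. The larval marker lin-4 was 141.2 to 468 CPM in the 2-8 cell libraries and at most 6.81 CPM in the other 12. let-7_5p, a miRNA of late larval timing, was 1934 to 5401 CPM in the 2-8 cell libraries, 84.5 to 2163 CPM in the other 12 and 0.415 to 10.9 CPM in the whole allele part. The larval-stage sum was 507.6 to 1604 CPM in the 2-8 cell libraries, 17.2 to 667.6 at comma, 29.5 to 87.6 at pretzel and 91.2 to 351.3 in starved L1. All 3 markers of that sum were detected in both ebax-1(null) 2-8 cell libraries, and 2 of the 3 in both wild-type ones. The part of larval or maternal RNA in the 2-8 cell level of mir-71 was not tested. In whole animals, fewer cells that hold a miRNA and less of it per cell cannot be told apart.

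The passenger arm was also lowest at comma. In wild type mir-71_3p* was 856.8 and 101.9 CPM at the 2-8 cell stage, 23.9 and 54.9 at comma, 481.1 and 573.0 at pretzel and 493.7 and 802.9 in starved L1. The 2-8 cell libraries differed from each other more than the arm differed between pretzel and L1. The step to comma was −3.60 (SE 1.203) and −1.37 without 2-8 cell replicate 1, so whether it was steeper than the guide's, −2.97 and −2.39, turns on that library. The step from comma to pretzel was 3.74 (SE 1.21), and the last step was 0.30 (SE 1.08), within its error. The last step was −0.094 without starved L1 replicate 2 and 1.48 without pretzel replicate 2, and RLE factors and library totals gave 1.31 and 1.51.

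In ebax-1(null) mir-71_3p* was 996.5 and 1715 CPM, then 33.2 and 36.2, 519.4 and 754.2, and 297.1 and 525.9 CPM. The steps were −5.28 (SE 1.301), 4.19 (SE 1.24) and −0.63 (SE 1.09), so the last one again lay within its error. It turned to 0.49 without the shallow libraries and to 0.26 with RLE factors.

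**Figure D2:**
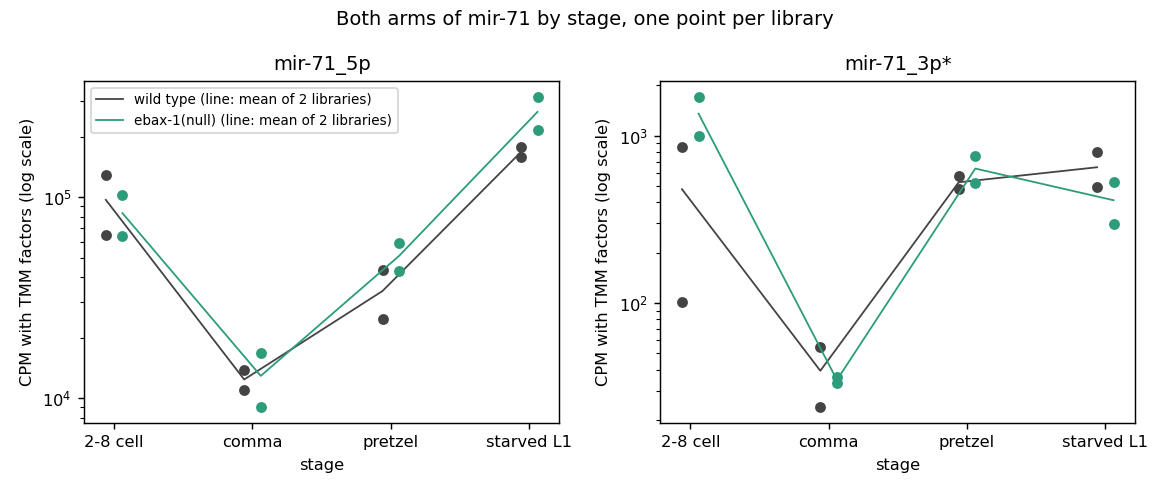
CPM with TMM factors (log axis) of mir-71_5p, left, and mir-71_3p*, right, at the 4 stages, 1 point per library and lines through the means of 2 libraries, in wild type and ebax-1(null). Both arms are lowest at comma; the guide is then highest in starved L1, while the passenger in wild type is 481.1 to 802.9 CPM from pretzel on.

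The edited strains ask whether changes in mir-35 alter mir-71, within a stage or in the change between stages. The levels of both arms in all strains were known when the arms were chosen, so these tests are no independent support. No comparison of either arm passed the threshold, an adjusted p under 0.05 in edgeR's quasi-likelihood test with Benjamini-Hochberg adjustment over all arms. Over 23 comparisons of genotype, with the ebax-1 ones counted, none had an unadjusted p under 0.05 for either arm. DESeq2 also passed none, with an unadjusted p under 0.05 in 1 comparison of mir-71_3p* and in 0 of mir-71_5p. Some other edgeR runs had an unadjusted p under 0.05. For mir-71_5p this was 1 comparison by spike-ins and 1 by library totals. For mir-71_3p* it was 2 with a replicate block. Runs that left out libraries are not counted here. Among all 229 arms the strain comparisons called 0.437 to 0.873%, and the comparisons of the change called 0 to 0.437%.

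In embryos the guide differed from wild type by −0.85 (SE 0.675) in seed_mut to 0.73 (SE 0.635) in seed_rev_no_bulge on the log2 scale, with edgeR adjusted p of 0.954 or more. The last value turned to −1.16 without that strain's embryo replicate 1, which belongs to set 4 described below, and to −0.311 with the replicate block. In L1 the largest differences were 0.91 (SE 0.632, adjusted p = 0.483) in seed_rev_no_bulge and 0.88 (SE 0.633, adjusted p = 0.648) in mir-82_3' by edgeR. By spike-ins the former was −0.126 and the latter 0.20, and without replicate 1 of each strain they were 0.37 and 0.13, so the direction of the former and the order of both changed with the scaling. The 95% intervals of these 10 comparisons together reach from −2.221 to 2.195 on the log2 scale. For the mean of the 5 strains the difference was −0.01 in embryos, with an interval of −0.91 to 0.89, and 0.32 in L1, with an interval of −0.59 to 1.24. The change from embryo to L1 differed from that of wild type by 0.33 for the mean of the 5 strains, with an interval of −0.94 to 1.61 and an edgeR adjusted p of 0.997.

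mir-71_3p* had narrower intervals. Its 10 strain differences ran from −0.47 (mut_3' embryos) to 0.50 (seed_mut embryos), with edgeR adjusted p of 0.752 or more. For the mean of the 5 strains it was −0.12 in embryos (interval −0.62 to 0.39) and −0.06 in L1 (interval −0.57 to 0.44).

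The ebax-1 comparison asks whether loss of the ligase receptor alters mir-71. The guide differed from wild type by −0.22 at the 2-8 cell stage, 0.06 at comma, 0.58 at pretzel and 0.66 in starved L1 (SE 0.520 to 0.522, n = 2 against 2, edgeR adjusted p 0.828 to 1.0). The 2-8 cell value turned to 0.354 without wild-type replicate 1, to 0.058 without ebax-1(null) replicate 2 and to 0.068 with factors without mir-71 and the mir-35 family, and the comma value to −0.458 without ebax-1(null) replicate 1. By spike-ins the 4 values were 0.528, 0.908, 1.00 and 1.06. Averaged over the 4 stages the difference was 0.27, with an interval of −0.24 to 0.78 and an edgeR adjusted p of 1.00. By spike-ins the average was 0.875. For mir-71_3p* the 4 differences ran from −0.65 to 1.50, and their average was 0.24 with an interval of −0.83 to 1.31. Among all 198 arms these comparisons called 0 to 1.52%. In starved L1 the shares of the guide were 25.4 and 29.1% in wild type and 35.1 and 36.8% in ebax-1(null). The 35.1% library was the shallowest of all, with 170758 counts. How many other arms had no overlap was not counted, and the guide's edgeR adjusted p at this stage was 0.828.

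**Figure D3:**
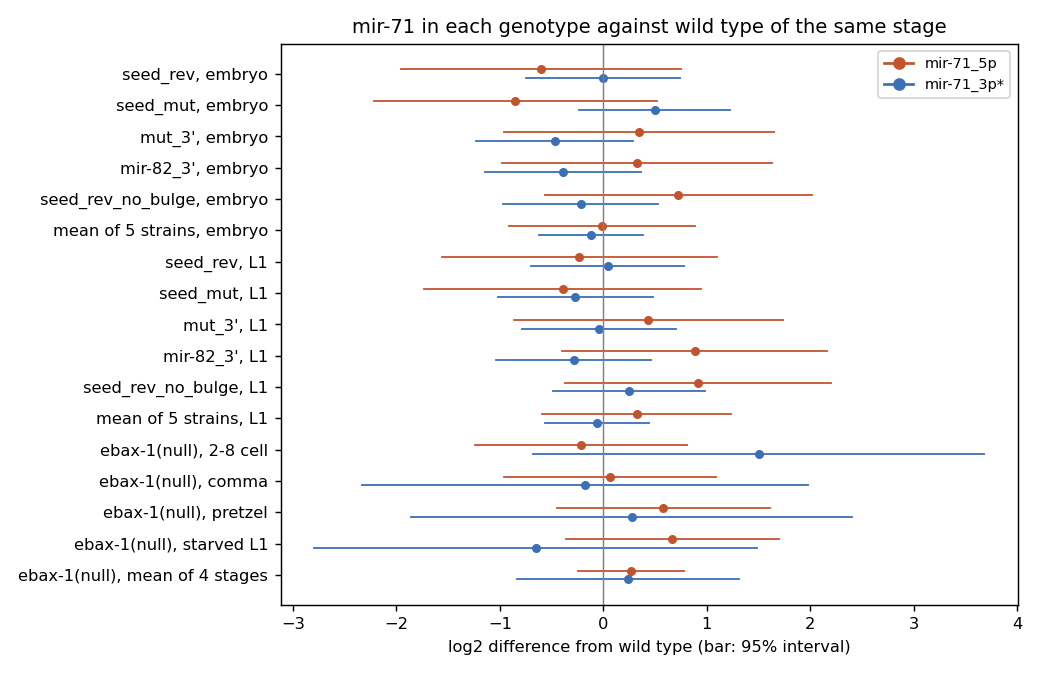
Log2 difference from wild type of the same stage with its 95% interval, for mir-71_5p and mir-71_3p*, in each edited strain, in the mean of the 5 strains and in ebax-1(null). Every interval includes 0, and those of the guide are wider than those of the passenger in the allele part and narrower in the staged part.

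The ratio of the arms within a library needs no scaling. In wild-type embryos there were 4.94, 4.30, 15.38, 0.639, 0.941 and 3.23 passenger counts per 100 guide counts in replicates 1 to 6. In wild-type L1 there were 0.777, 1.083, 0.644, 0.421, 0.834 and 0.273. The ranges overlapped, and 4 of the 6 embryo libraries lay above every L1 library. Over all strains the ratio was 0.366 to 15.38 in embryos, with a median of 3.401, and 0.132 to 1.083 in L1, with a median of 0.616.

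The staged part gave a ratio for each of its stages. Comma libraries had 0.198 to 0.401 passenger counts per 100 guide counts in both genotypes, pretzel libraries 1.21 to 1.94, and starved L1 0.139 to 0.508. The 2-8 cell libraries spread from 0.156 to 2.66. The order of stages by this ratio therefore put pretzel above comma and starved L1, without overlap.

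**Figure D4:**
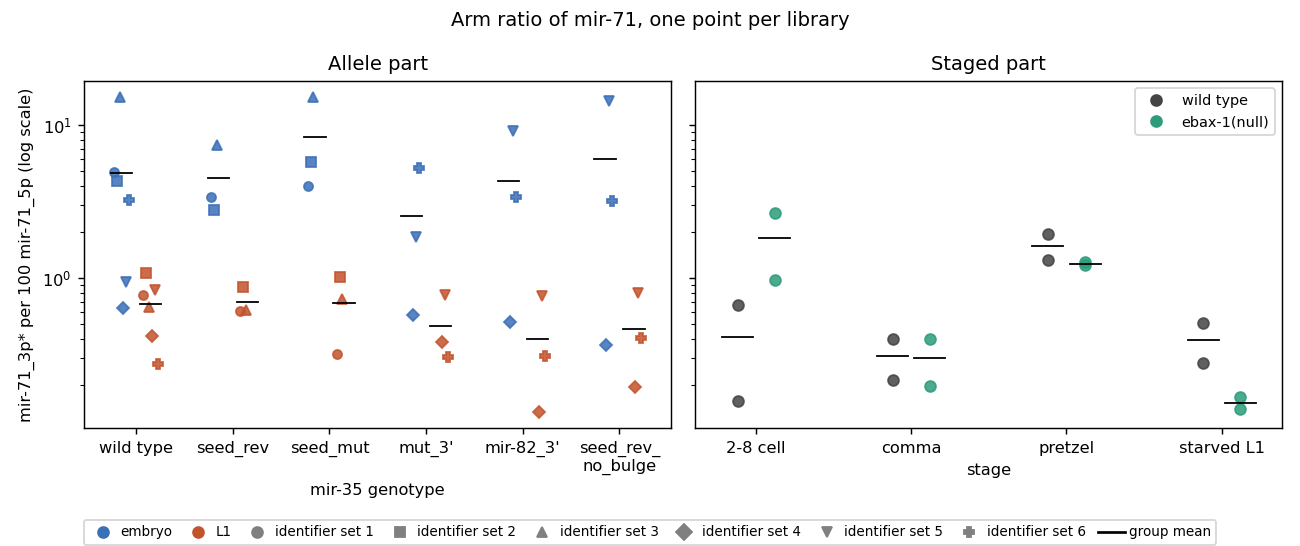
Counts of mir-71_3p* per 100 counts of mir-71_5p (log axis), 1 point per library, with group means as black lines and symbols for the sets of sample identifiers in the left panel. Embryos of the allele part run from 0.366 to 15.38 and L1 from 0.132 to 1.083; in the staged part pretzel embryos, at 1.21 to 1.94, lie above comma and starved L1.

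Among 65 miRNAs with at least 100 counts of both arms in both wild-type groups, 46 had a lower ratio in L1 than in embryos. The median change of the log2 ratio was −0.74, against −2.26 for mir-71, and 9 miRNAs fell further. In that order mir-71 stood between mir-54 (−2.36) and mir-44 (−2.16), whose count is uncertain because its guide sequence is the same as that of mir-45. Between genotypes the log2 ratio is given as a description, since the arm ratio was among the values the choice rested on. In embryos the edited strains averaged −4.97 ± 1.66 and wild type −5.09 ± 1.68 (SD, 15 and 6 libraries), a difference of 0.12. In L1 the edited strains stood 0.37 lower, at −7.72 ± 0.867 against −7.355 ± 0.728, and ebax-1(null) differed from wild type by 0.15 over the 4 stages. The differences of the edited strains were smaller than the SDs. The ebax-1(null) average joins stages that went opposite ways. At the 2-8 cell stage the log2 ratio was −6.68 and −5.23 in ebax-1(null) against −7.23 and −9.31 in wild type. In starved L1 it was −9.49 and −9.23 against −8.48 and −7.62. The libraries under 500000 counts are among these, and no difference within a stage was tested.

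Replicate spread set these intervals. In the allele part the fitted biological coefficient of variation (BCV), the relative spread between replicates beyond counting, was 0.620 for the guide and 0.370 for the passenger, against a median of 0.430 over 229 arms. Only 15 arms had a larger BCV than the guide. In the staged part it was 0.527 for the guide, against a median of 1.15, and 195 of 198 arms varied more.

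Part of the guide's spread in the allele part went with 6 sets of neighbouring sample identifiers, whose meaning the labels do not give. How large a part was not measured. Sets 1 to 3 held wild-type replicates 1 to 3 with seed_rev and seed_mut, and sets 4 to 6 held wild-type replicates 4 to 6 with the other 3 strains, so each strain was seen in 3 sets only. The intervals of the genotype differences do not take the sets into account. With a replicate block for the sets, the guide's embryo differences changed sign in seed_rev, mir-82_3', mut_3' and seed_rev_no_bulge. In set 4 the embryo share was 1.075% in wild type, 1.83% in seed_rev_no_bulge, 1.16% in mir-82_3' and 0.981% in mut_3'. In the 17 embryo libraries of the other sets it was 0.0962 to 0.480%, so set 4 stood apart. Set 5 embryos differed among themselves, at 0.4425% in wild type and 0.461% in mut_3' against 0.145% in mir-82_3' and 0.0962% in seed_rev_no_bulge.

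The passenger did not share that excess. In set 4 embryos it was 0.00559 to 0.00687% of miRNA counts, against 0.00416 to 0.0257% in the other embryos, and the ratio was 0.366 to 0.639 per 100 guide counts against 0.941 to 15.38. Per spike-in count, guide counts were 0.0298 to 0.0385 in set 4 and 0.00582 to 0.0173 in the others. The larval-stage marker sum in set 4 embryos, 88.1 to 119.9 CPM, was within the 43.01 to 185 CPM of the others. let-7_5p was 5.07 to 10.9 CPM in the 4 set 4 embryos and 0.415 to 7.28 CPM in the 17 others, of which 1 lay above 4.13 CPM. Its part in the guide's level was not tested.

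In L1 the guide's share was 12.4 to 25.7% in set 4 and 13.4 to 18.4% in set 6, against 6.93 to 11.3% in sets 1, 2, 3 and 5. Within sets, the guide of an edited strain lay above its own wild type in 5 of 15 embryo pairs and below in 10, with log2 differences of −2.66 to 0.89. In L1 it lay above in 8 of 15 pairs and below in 7, with differences of −0.43 to 1.68.

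By a rule set on the likeness of log2 CPM to mir-71_5p in both parts, 5 other arms came closest among 114 abundant enough. Likeness is the smaller of Pearson's r over the 42 and over the 16 libraries; the libraries share stages and sets, and no test was made. mir-230_3p had r of 0.978 and 0.806, mir-238_3p, a miRNA with a reported role in lifespan, 0.903 and 0.765, and mir-84_5p, a let-7 family member that acts in larval timing, 0.895 and 0.713. mir-248_3p had 0.866 and 0.695, and mir-239a_3p* 0.717 and 0.566. mir-71_3p* itself, not one of the 114, would stand at place 3 among them, with 0.768 and 0.720. Within a stage of the allele part it did not follow the guide. Its r was −0.749 over the 21 embryo libraries and −0.084 over the 21 L1 libraries.

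In L1 each of these arms lay below the guide, while in embryos mir-238_3p overlapped it. In wild-type L1 of the allele part mir-71_5p averaged 93240 CPM, mir-238_3p 10350 CPM ± 1212, mir-248_3p 1061 CPM ± 396.7, mir-84_5p 830.5 CPM ± 185.7, mir-230_3p 175.3 CPM ± 98.2 and mir-239a_3p* 94.2 CPM ± 25.4 (SD, n = 6 each). In wild-type embryos their means were 4861, 1533, 248.6, 101.1, 11.2 and 23.1 CPM in the same order, and mir-238_3p ran from 870.5 to 2212 CPM against 1607 to 10677 CPM for the guide. In the staged wild type mir-84_5p was 366.4 to 818.6 CPM at the 2-8 cell stage, 0 to 53.25 at comma and 91.2 to 351.3 in starved L1, so its 2-8 cell libraries lay above its comma libraries. mir-230_3p was 105.4 and 611.0 CPM at the 2-8 cell stage, 8.32 and 143.8 at comma, which overlap, and 367.3 and 674.8 in starved L1. mir-238_3p also overlapped, at 2062 and 5652 CPM at the 2-8 cell stage and 727.8 and 2472 at comma. mir-248_3p did not rise in the last step, with 577.8 and 860.3 CPM at pretzel and 500.6 and 901.8 in starved L1. mir-239a_3p* was near the floor early, at 0 and 9.55 CPM at the 2-8 cell stage.

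**Figure D5:**
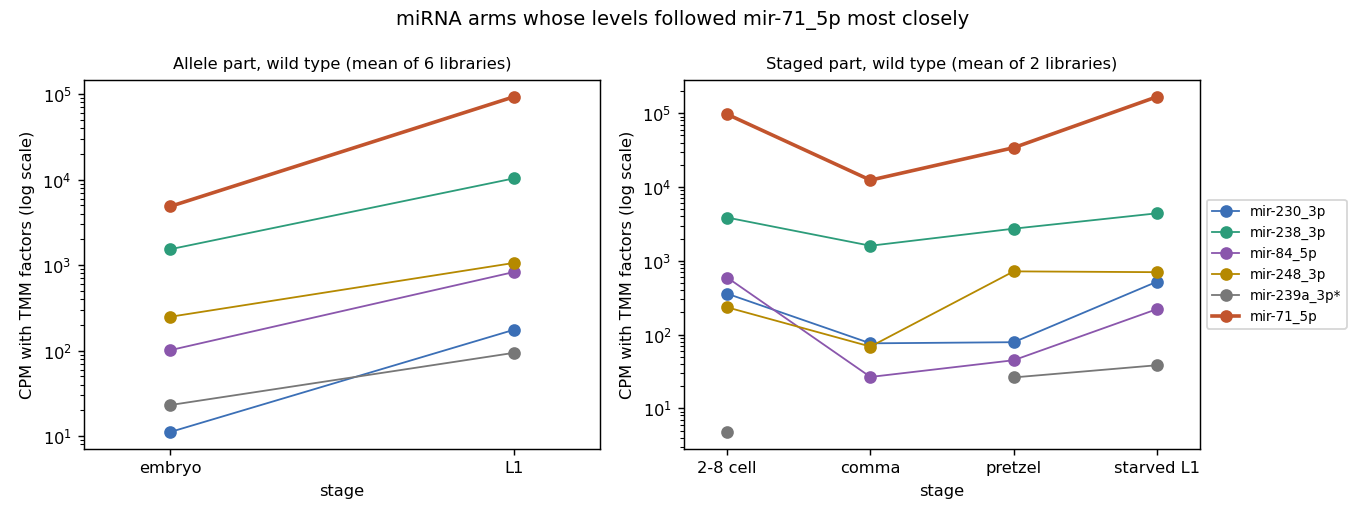
Mean CPM with TMM factors (log axis) of mir-71_5p and the 5 arms most like it, in wild type of the allele part (6 libraries per stage, left) and of the staged part (2 libraries per stage, right). mir-239a_3p* has no point at comma because it was listed at 0 there. mir-71_5p goes from 4861 to 93240 CPM on the left and is the highest line throughout.

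miRNAs reported to affect lifespan were set beside mir-71 in the same wild-type contrast of L1 with embryo. Of 9, 7 rose, 0 fell and 2 did not pass edgeR's adjusted threshold, with a median log2 change of 1.67 against −0.18 over all 229 arms, of which 23.1% were called higher and 32.3% lower. mir-238_3p rose by 2.76 (SE 0.294), lin-4_5p, the founding regulator of larval timing, by 2.52 (SE 0.465), mir-83_3p by 2.33 (SE 0.355), and mir-34_3p by 1.67 (SE 0.501). mir-246_3p, at −0.77 (SE 0.342), and mir-239b_5p, at −0.24 (SE 0.689), did not pass. The guide's own change was 4.26, but the guide was chosen for its rise, so its place against these 9 is no result. This list and those below were chosen with earlier results of these data known, so their counts are a description.

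Of 3 miRNAs reported in larval quiescence or starvation, mir-84_5p rose by 3.04 (SE 0.332) and mir-80_3p by 1.202 (SE 0.323), while mir-235_3p, at 0.46 (SE 0.318), did not pass. All 3 larval-stage markers rose, with a median of 3.04. All 8 mir-35 family guides fell, with a median of −5.26. Of the muscle and neuron markers 0 of 3 passed, with values of 0.15 for mir-1, 0.78 for mir-124 and −0.20 for lsy-6.

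In the staged part the lists were read over other steps, with 2 libraries per group. Between the wild-type 2-8 cell and comma stages, 1 of 7 tested lifespan miRNAs rose and 1 fell, with a median of −1.27 against 0.81 over 198 arms, of which 16.2% were called higher and 6.06% lower. mir-228_5p rose by 3.71 (SE 0.622). lin-4_5p fell to 0 in both comma libraries. In ebax-1(null) the same step had 1 of 7 lifespan miRNAs higher and 3 lower, 2 of 3 quiescence miRNAs lower and 2 of 3 larval-stage markers lower, with medians of −0.42, −4.75 and −5.13 against 0.58 over 198 arms, of which 9.6% were called higher and 8.08% lower. From pretzel to starved L1 in wild type, 0 of 7 lifespan miRNAs passed by edgeR, with a median of 0.69 against −1.45 over all arms, of which 1.01% were called higher and 12.1% lower. Of the 8 mir-35 family guides, 6 fell in that step.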

How the data were processed

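The authors deposited 1 table of estimated counts per miRNA arm for all 58 libraries, not scaled. Reads had been handled with HTSeq 0.13.5, SAMtools 1.13, Bowtie2 2.4.4, cutadapt 3.4 and DESeq2 (version not stated), per the submitters' processing notes. No source used here names the genome build, and coordinates are left out. The 296 lines are 276 miRNA arms, 10 edited mir-35 sequences and 10 spike-ins; 510 values, 16 of them for mir-71, end in 0.5 and were rounded to whole counts. In edited strains the mir-35 lines were taken from the strain's own allele sequence, with those of seed_rev and seed_rev_no_bulge joined because they hold the same reads. The series' own design text concerns an experiment that matches none of the labels, and was left out.

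Samples were grouped by their labels. The 42 and the 16 libraries were fitted apart in edgeR 4.0.16 (R 4.3.3) by quasi-likelihood with robust estimation and TMM factors, after filterByExpr (total 15, minimum count 10). P-values were adjusted by Benjamini-Hochberg over the 229 or 198 arms kept, with a threshold of 0.05; both arms of mir-71 passed the filter. The fit was also run on simulated data with known changes. Its outcome is not given here and lends no support to the results above. Log2 CPM used a prior count of 2, the arm ratio 0.5. A planned permutation test of the arm ratio is left out, since the ratio was among the values that chose the arms. The members and lists were chosen with earlier results of these data known. Named arms were both arms of mir-71, the 5 arms (mean log2 CPM 5 or more) whose lower r with mir-71_5p over the 2 parts was highest, list members, and neighbours in the order of arm ratios. Alternatives were DESeq2 1.42.0, scaling by RLE factors, by library totals, by spike-ins or by TMM factors without mir-71 and the mir-35 family, other filters, a replicate block, fewer groups or libraries, and, added after seeing the data, the mir-35 lines of 1 sequence only. There were no molecular identifiers, so intervals of counts cover counting error only. Python 3.11.15, pandas 2.3.3, scipy 1.17.1 and matplotlib 3.10.9 were used.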

Additional observations from a re-analysis of the deposited data

Results flagged for a closer look

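In wild-type embryos of the allele part, the share of mir-71_5p in replicate 4, 1.075%, was far above the other 5 libraries, which had 0.126 to 0.4425%. The gap was 0.666 of the whole range. It is given as a description, since the shares, ratios and their spread were among the values that chose the arms. This library belongs to identifier set 4, whose embryos of 3 edited strains were high as well.

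The ratio of mir-71_3p* to mir-71_5p in wild-type embryo replicate 3, 15.38 per 100, was far above the other 5, which had 0.639 to 4.94. The gap was 0.708 of the range. In the same set the seed_rev and seed_mut embryos had 7.47 and 15.2.

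Such gaps were looked for in 12 combinations of group and measure, so some wide ones arise by chance, and no test is drawn from them. On the log2 scale the gap was 0.333 of the range for the guide's CPM, there at replicate 3, and 0.357 for the ratio.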

How the results depend on the processing

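No genotype comparison of either arm passed the threshold under any alternative run (15 to 23 comparisons each), and none did when each library was left out in turn (296 comparisons per arm over these fits, smallest adjusted p 0.213 for mir-71_5p and 0.183 for mir-71_3p*). The smallest adjusted p of the other alternatives was 0.0794 and 0.147, without the doubted libraries: seed_rev embryo replicate 3 and wild-type embryo replicate 5 (TMM factor under 0.75), and wild-type 2-8 cell replicate 1, ebax-1(null) 2-8 cell replicate 2 and ebax-1(null) starved L1 replicate 1 (under 500000 counts). Of the values under alternatives other than leaving out a library, 379 kept their direction and size, 33 moved and 35 changed sign. With each library left out in turn, 398 kept them, 17 moved and 59 changed sign. The cause was not tested. The 2 replicates per staged group and the BCV of the guide limit the intervals.

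Log2 differences of mir-71_5p between L1 and embryo became 5.41 in wild type, 5.72 in seed_rev, 5.93 in seed_mut and 5.72 in mut_3' by spike-ins, and 2.86 for mir-71_3p* in wild type. Against wild type in embryos, spike-ins gave −0.014 for mut_3', and in L1 −0.126 for seed_rev_no_bulge. The mean of the 5 strains in embryos was 0.075 by library totals, 0.048 without mir-71 and the mir-35 family in the factors, 0.028 with 1 mir-35 sequence and 0.166 without the doubted libraries. For mir-71_3p* it was 0.006, 0.010 with 1 sequence, 0.015 with the block and 0.017 with the compared groups only. The difference in the change of mir-71_3p* was −0.034 with RLE factors and with DESeq2, −0.226 by library totals, −0.129 without the family, −0.002 by spike-ins, −0.019 with the block and −0.086 with 1 sequence.

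Same-set libraries of other genotypes and the same stage tended to deviate together. Their r was over 0.1 in 44 of 54 pairs (median r 0.427), against 99 of 306 pairs of other sets (median −0.094). The rule used asked for all pairs, so the main fits hold no set term. With the replicate block, embryo differences of mir-71_5p were 0.101 in seed_rev, −0.583 in mir-82_3', −0.135 in mut_3' and −0.311 in seed_rev_no_bulge. L1 differences were 0.305 in seed_rev, 0.127 in seed_mut and −0.150 in mut_3'. Each of these has the opposite sign to the main fit, while the block changed no call. With wild type of the same sets only, they were 0.242 (seed_rev), −0.208 (mut_3') and −0.330 (mir-82_3') in embryos and 0.168 (seed_rev) and 0.007 (seed_mut) in L1.

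In the staged part, RLE factors, library totals, factors without the family and spike-ins gave −4.06, −3.67, −3.62 and −1.77 for the wild-type guide from 2-8 cell to comma, and the last pair −3.33 and −1.39 in ebax-1(null). From pretzel to starved L1 the guide rose by 3.31, 3.54 and 3.19 in wild type under the first 3, and by 3.49 without the doubted libraries; in ebax-1(null) by 3.28, 2.93, 3.04 and 3.399. From 2-8 cell to starved L1 it was 1.36 by library totals, 2.52 by spike-ins and 1.36 without the doubted libraries in wild type, and 3.06 by spike-ins in ebax-1(null), whose step to comma was −3.35 without those libraries. mir-71_3p* from pretzel to starved L1 was 1.31, 1.51, 1.16 and 1.48 in wild type and 0.264, −0.106, 0.022 and 0.491 in ebax-1(null), whose step to comma was −5.93, −5.73 and −5.97 and, by spike-ins, −3.79. The 2-8 cell difference of the guide in ebax-1(null) was 0.068 without the family, 0.528 by spike-ins and 0.496 without the doubted libraries.

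Leaving out each library in turn, the rise of mir-71_5p from embryo to L1 was 3.96 to 4.66 in wild type, 4.22 to 4.78 in seed_rev, 4.45 to 5.17 in seed_mut, 4.07 to 6.26 in mir-82_3', 4.00 to 5.00 in mut_3' and 3.404 to 6.34 in seed_rev_no_bulge, highest without that strain's set 4 embryos. Its embryo differences from wild type were −0.98 to −0.21 in seed_rev, −1.33 to −0.46 in seed_mut, −1.12 to 0.72 in mir-82_3', −0.30 to 0.74 in mut_3' and −1.16 to 1.61 in seed_rev_no_bulge. Its L1 differences were −0.459 to 0.073, −0.66 to −0.09, 0.13 to 1.43, 0.18 to 0.80 and 0.37 to 1.22 in the same order. For the mean of the 5 strains they were −0.39 to 0.38 in embryos, 0.17 to 0.63 in L1 and −0.062 to 0.711 for the change, and for mir-71_3p* −0.25 to 0.16, −0.14 to 0.10 and −0.22 to 0.19, with 1.91 to 2.33 for its rise in wild type. In the staged part the guide's steps were −4.27 to −2.39, 0.81 to 1.81 and 1.95 to 3.86 in wild type, with 0.39 to 1.36 from 2-8 cell to starved L1, and −3.35 to −2.31, 1.60 to 2.50, 2.07 to 2.63 and 1.36 to 2.04 in ebax-1(null). The steps of mir-71_3p* were −5.33 to −1.37, 3.25 to 4.56 and −0.094 to 1.48, negative without starved L1 replicate 2, in wild type, and −5.62 to −5.22, 3.90 to 4.44 and −1.10 to −0.28 in ebax-1(null). ebax-1(null) differed from wild type in the guide by −0.64 to 0.35, −0.46 to 0.65, 0.23 to 1.61 and 0.36 to 0.92 at the 4 stages and by 0.14 to 0.61 on average, and in mir-71_3p* by 0.12 to 0.79 on average. The log2 arm ratio differed by −0.32 to 0.60 in embryos, −0.60 to −0.20 in L1 and −0.18 to 0.43 in ebax-1(null).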
